A study of Mus musculus with 12 samples.

Results

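Macrophage genes were followed through cultures of bone marrow mesenchymal stem cells (MSCs) grown with or without hematopoietic stem cells (HSCs). The 9 genes were Adgre1, Mpeg1, Lyz1, Lyz2, Gpnmb and Aif1, whose proteins mark or arm macrophages, and Maf, Spi1 and Irf8, which encode transcription factors of the lineage. They were chosen by name, and every probe set that the platform annotation assigns to one of them as its single gene symbol was kept. This gave 18 of the 45037 probe sets of the array and 9 of the 18193 genes it names. Maf had 6 probe sets, Lyz1 had 3, Gpnmb and Irf8 had 2 each, and Adgre1, Mpeg1, Lyz2, Aif1 and Spi1 had 1 each.

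The arrays measured RNA of 6 cultures of MSCs alone (MSC-only group) and 6 cultures of MSCs with HSCs (co-culture group), all taken on day 6. The labels give bone marrow of male C57BL6/J mice 6 weeks old for every sample. MSCs had been sorted for Sca-1 and PDGFR-α, with CD31, CD45 and TER119 positive cells removed, and HSCs for c-Kit and Sca-1 among cells that lack lineage markers. A well received 3000 MSCs with 7000 HSCs in the co-culture group and 0 HSCs in the MSC-only group, in IMDM with 20% fetal bovine serum. For its co-cultures the study also used MSCs of mice that express EGFP under the ubiquitous CAG promoter, and the sources do not say whether these were on the arrays. Nor do they say whether these co-cultures shared the well or were parted by a transwell, whether cells were sorted again before RNA was taken, or whether samples came from separate mice. The p-values therefore measure only the spread between these samples, which may be technical. In RNA of a whole culture, fewer cells of a type and less RNA per cell cannot be told apart.

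Macrophages are tissue phagocytes that arise from hematopoietic precursors and depend on signalling through the CSF1 receptor. PU.1, the protein of Spi1, opens the enhancers that set the myeloid programme, IRF8 works with it to direct progenitors towards monocytes, and MAF is a factor of the mature resident cell. In bone marrow, macrophages lie beside the stroma and adhere to culture plastic as MSCs do. MSCs and fibroblasts make type I collagen, one chain of which is encoded by Col1a2, the stromal gene against which the 9 genes were set.

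The arrays were alike, with correlations between 0.964 and 0.98 over all probe sets among the 66 pairs. Beside stromal genes, the RNA labelled as MSC-only held genes of hematopoietic cells. Ptprc, which encodes CD45, an antigen removed in the sort, had signals of 10425 to 13144 on the MSC-only arrays, and Pdgfra, a sort marker, had signals of 583 to 1162 there. Further defining macrophage genes were also present, with Cd68, a lysosomal protein, at 24712 to 31903 and Csf1r, the CSF1 receptor, at 22598 to 39489 over all 12 arrays. Of 40 further macrophage surface and effector genes 4 had a mean signal under 50, namely Lyve1 (3.3 to 45.4), Marco (9.0 to 64.8), Timd4 (3.1 to 51.5) and Ccr2 (20.8 to 50.5), which mark subsets of macrophages and monocytes. The labelled sex was not met on every array. Xist, expressed from the inactive X chromosome, lay between 60.5 and 118 on MSC-only arrays 1, 2, 5 and 6, but at 16810 or more on MSC-only arrays 3 and 4 and at 13136 or more on all 6 co-culture arrays. Eif2s3y, a Y-linked gene, was at most 13.6 on arrays 3 and 4 of both groups and at least 1022 on the other 8. Co-cultures 1, 2, 5 and 6 thus held both signals. Their Eif2s3y was 1022 to 1331, against 2604 to 2845 on the MSC-only arrays of the same numbers. The cells that gave each signal were not identified. Since Eif2s3y was low on the arrays numbered 3 and 4, results are also given without them. Among the arrays that then remain, Xist was high on every co-culture and on no MSC-only array. Group and sex signal cannot be told apart there.

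Adgre1 encodes F4/80, the classical surface antigen of mouse macrophages. Its signal had a lowest value of 8833, a median of 13476 and a highest value of 16686 in the MSC-only group, and 10292, 12459 and 16006 in the co-culture group. The lowest and the highest array both belonged to the MSC-only group, numbers 3 and 6, and the groups overlapped over nearly the whole range.

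Mpeg1 encodes perforin-2, a pore-forming protein that acts against engulfed bacteria. Its lowest, median and highest signals were 28532, 32296 and 39378 in the MSC-only group and 29542, 32360.2 and 39964 in the co-culture group. This was the narrowest spread among Adgre1, Mpeg1, Lyz1, Lyz2, Gpnmb and Aif1 at their brightest probe sets, 1.40-fold from the lowest to the highest array.

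Lyz1 and Lyz2 are neighbouring genes for lysozyme, an enzyme that breaks bacterial cell walls. Their start sites lie 10.6 kb apart on chromosome 10 of GRCm38.p6, both on the minus strand. The 250 bases before each start, taken from RefSeq's annotation of that build, are shown because the brightest probe sets of these genes moved together. That Lyz1 probe set may share signal with Lyz2, as given below. The capitals mark the letters AGGAAGT, the core of a PU.1-type ETS motif. The motif lies here on the opposite strand and so reads as ACTTCCT. The windows are chr10:117282273-117282522 for Lyz2 and chr10:117292869-117293118 for Lyz1.
Lyz2: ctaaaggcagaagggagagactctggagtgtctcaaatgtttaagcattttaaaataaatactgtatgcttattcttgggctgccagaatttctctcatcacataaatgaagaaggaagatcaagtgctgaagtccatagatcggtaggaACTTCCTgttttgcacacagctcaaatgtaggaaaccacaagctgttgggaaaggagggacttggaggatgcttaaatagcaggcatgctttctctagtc
Lyz1: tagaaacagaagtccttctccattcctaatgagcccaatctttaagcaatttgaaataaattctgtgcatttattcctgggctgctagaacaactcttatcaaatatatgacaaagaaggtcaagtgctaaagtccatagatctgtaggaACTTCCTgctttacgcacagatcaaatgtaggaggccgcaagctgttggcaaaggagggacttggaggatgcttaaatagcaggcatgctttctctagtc
The motif began 100 bases before the start in both. Both strands were searched for these letters, the only motif tried, and they occurred in 2 of the 7 windows of the 6 genes that had a window, and in 7.69% of 32851 windows of the same length. The windows of Lyz1 and Lyz2 were identical at 60.8% of positions, at 92% of the 100 bases nearest the start and at 40% of the 150 bases farther away. A match of letters is a description of the sequence only.

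Lyz2 had a lowest, median and highest signal of 26298, 35970.1 and 42965 in the MSC-only group and of 26686, 33506 and 45144 in the co-culture group. In both groups the arrays spread over this range, with MSC-only 4 and co-culture 4 at the low end and MSC-only 5 and co-cultures 2 and 5 at the high end. The brightest Lyz1 probe set, 1436996_x_at, ran from 26231 through a median of 38110.2 to 44670 in the MSC-only group, and from 26585 through 35252 to 47667 in the co-culture group. It followed Lyz2 with r = 0.98 over the 12 arrays. Its suffix marks probes that also match other sequences, so Lyz1 and Lyz2 may share signal there. The Lyz1 probe set without such a suffix, 1450822_at, gave only 82.8 to 270 and followed Lyz2 with r = 0.18.

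Gpnmb encodes a transmembrane glycoprotein of lysosome-rich macrophages. Its brightest probe set, 1448303_at, had a lowest, median and highest signal of 28863, 39318 and 46103 in the MSC-only group and of 30949, 38948 and 50209 in the co-culture group. The second probe set, 1439345_at, agreed poorly with it (r = 0.35) and ranged from 2438 to 3886 over all arrays.

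Aif1 encodes IBA1, an actin-binding protein of macrophages and microglia. Its signals were 1764, 2519 and 3668 in the MSC-only group and 2408, 2630.25 and 3104 in the co-culture group, again as lowest, median and highest. All co-culture arrays lay inside the MSC-only range, and the coefficient of variation was 24.8% in the MSC-only group and 9.42% in the co-culture group.

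**Figure D1:**
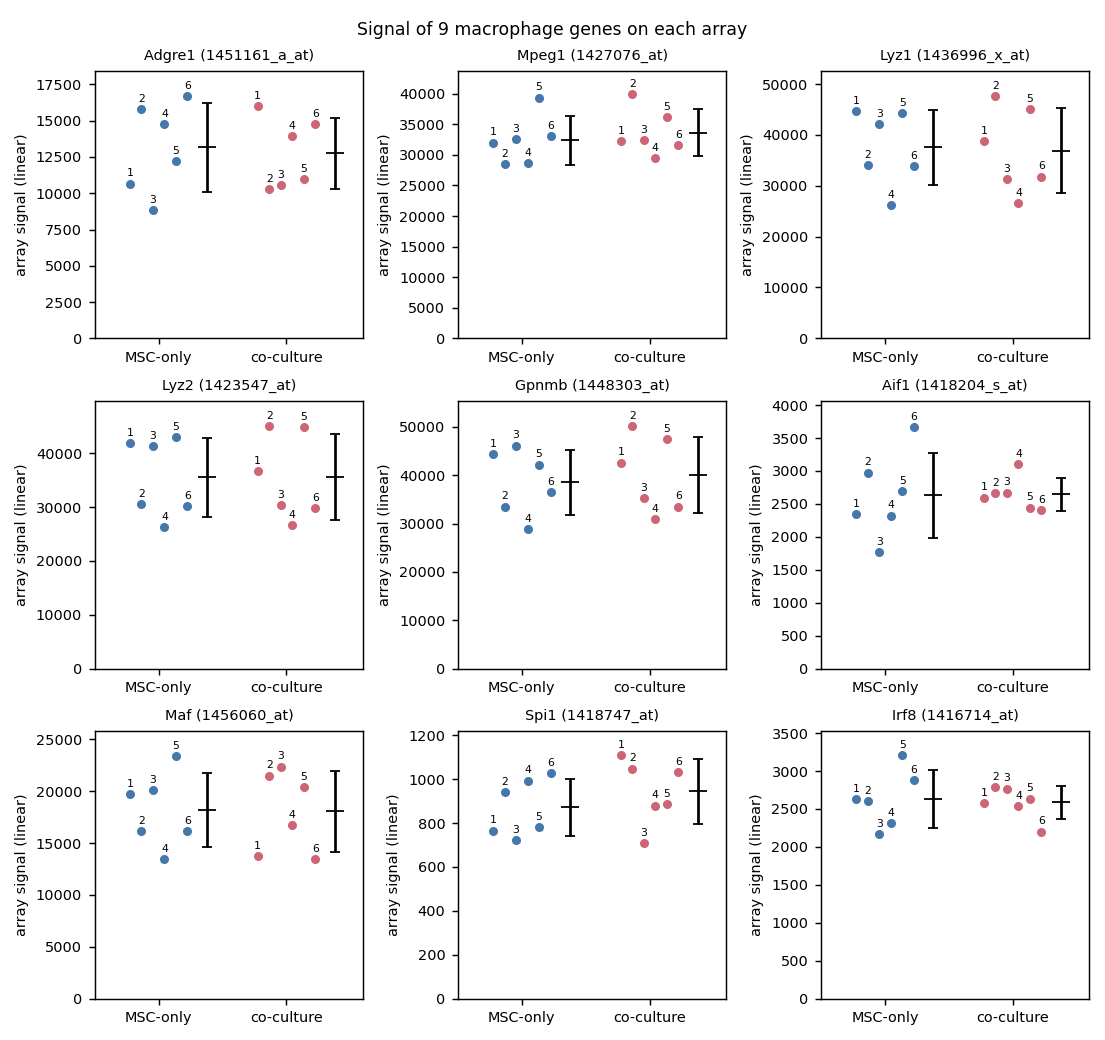
Deposited signal (linear, arbitrary units, each axis from 0) of the brightest probe set of each of the 9 genes, 1 point per array with its replicate number, MSC-only in blue and co-culture in red; the bars are mean ± SD (n = 6). The groups overlap for every gene, for example Lyz2 from 26298 to 42965 against 26686 to 45144.

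Maf encodes c-MAF, a basic leucine zipper factor that holds macrophages in their differentiated, non-dividing state. Its brightest probe set, 1456060_at, had a lowest, median and highest signal of 13465, 17954 and 23381 in the MSC-only group and of 13474, 18568 and 22366 in the co-culture group. The 3 lowest arrays were MSC-only 4 and co-cultures 6 and 1, at 13465 to 13755, and the highest was MSC-only 5. Among the 5 bright Maf probe sets all pairs agreed over the arrays, with r between 0.86 and 0.97. The sixth, 1447945_at, stayed between 52.0 and 139 and followed none of them (r from 0.20 to 0.38).

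Spi1 encodes PU.1. Its signals were 722, 862 and 1028 in the MSC-only group and 710.1, 959 and 1109 in the co-culture group. Co-culture arrays held both the lowest and the highest value, and the full range was 1.56-fold.

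Irf8 had signals of 2167, 2615 and 3213 in the MSC-only group and of 2202, 2607 and 2792 in the co-culture group at its brightest probe set, 1416714_at. The second probe set, 1448452_at, ran from 683 to 1636, and the 2 did not follow each other (r = 0.01). MSC-only array 3, for example, was the lowest of 12 on the first and the second highest on the other. Values of Irf8 are therefore tied to the probe set named.

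The comparison of the groups asked whether the presence of HSCs altered these genes. None of the 18 probe sets differed between co-culture and MSC-only by limma, with adjusted p = 1.0 for each, against 2 of 45037 probe sets called over the whole array (0.00444%). At an unadjusted p under 0.05 the count was again 0 of 18, against 4.36% of all probe sets, and the methods' unpaired test with the same adjustment also called 0. Means were higher in the co-culture for 9 probe sets and lower for 9. The median log2 difference, co-culture minus MSC-only, was 0.02 over the 18 and 0.02 over all probe sets.

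Single differences were small beside the spread between arrays. At the brightest probe set the log2 difference was -0.03 for Adgre1 (SE 0.18, 95% interval -0.42 to 0.35) and 0.06 for Mpeg1 (SE 0.11, -0.18 to 0.29). It was -0.00 for Lyz2 (SE 0.18, -0.38 to 0.38). Among the factors it was -0.02 for Maf (SE 0.17, -0.39 to 0.36), 0.11 for Spi1 (SE 0.13, -0.18 to 0.40) and -0.02 for Irf8 (SE 0.11, -0.26 to 0.22). These intervals leave room for differences of either sign, so they do not show that the groups were equal. The highest difference among the 18 was 0.32, at the dim Lyz1 probe set 1450822_at (95% interval -0.22 to 0.87), and the lowest was -0.21, at Maf 1437473_at (-0.72 to 0.30). The smallest exact permutation p among the 18, two-sided over the 924 arrangements of 6 arrays against 6, was 0.286. Without the arrays numbered 3 and 4 the count was again 0 of 18, and the widest log2 difference among the brightest probe sets was 0.21, for Spi1 (adjusted p = 0.836 by limma). In that comparison the groups also differ fully in Xist, so it does not separate HSCs from the sex signal.

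**Figure D2:**
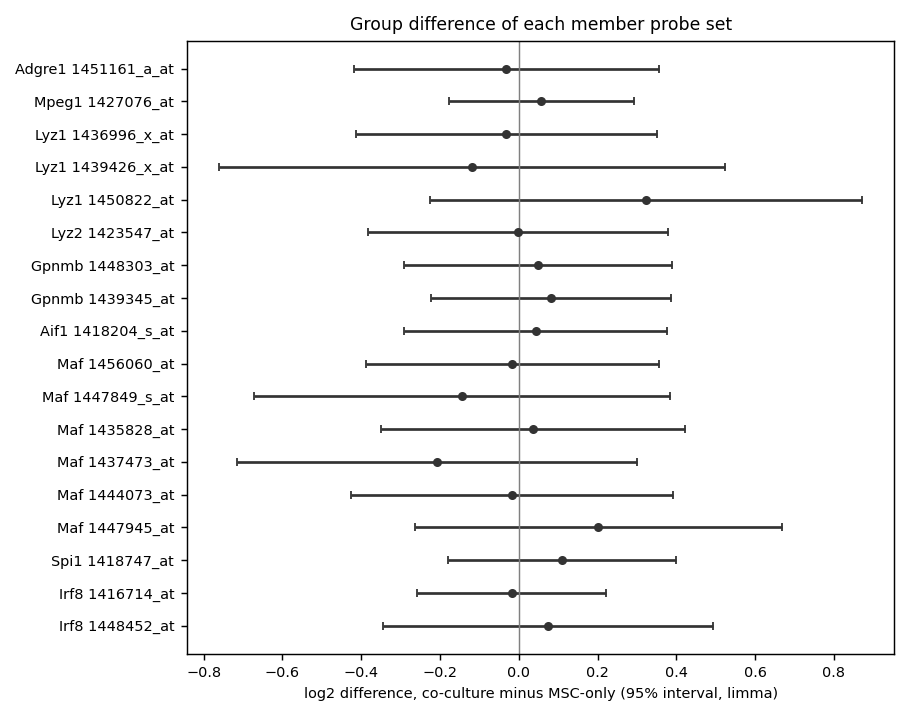
Log2 difference, co-culture minus MSC-only, of the 18 probe sets (points) with the 95% interval of the limma fit (bars, 6 arrays against 6). Every interval crosses 0, and the points lie between -0.21 and 0.32.

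The arrays differed in Col1a2, and the genes were next set against it. The brightest Col1a2 probe set had a lowest, median and highest signal of 10465, 17678 and 20612 in the MSC-only group and of 9677, 14319 and 17747 in the co-culture group, a 2.13-fold range over the 12 arrays. No gap between neighbouring arrays exceeded 0.157 of the log2 range, against a limit of 0.5, so the arrays were treated as continuous in Col1a2. This concerns the levels of Col1a2 only. A limma fit with the group and the log2 level of Col1a2 as terms gave each probe set a slope, the log2 change per log2 unit of Col1a2 among arrays of the same group. Over the array, 1.41% of 45034 probe sets had a positive slope and 1.33% a negative slope at an adjusted p under 0.05.

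Maf rose with Col1a2. Of the 18 probe sets 5 were called, all with a positive slope and all annotated to Maf, so they are repeated measurements of 1 gene rather than 5 findings. Their slopes lay between 0.75 and 1.07. At 1456060_at the slope was 0.76 (SE 0.14, adjusted p = 0.0250) and at 1437473_at it was 1.06 (SE 0.19, adjusted p = 0.0219). The dim probe set 1447945_at had a slope of 0.12 (SE 0.34) and was not called. The arrays with the lowest Maf, MSC-only 4 and co-cultures 1 and 6, were also the 3 lowest in Col1a2. Maf at 1456060_at was 13465 to 16736 on MSC-only 2, 4 and 6 and co-cultures 1, 4 and 6. On the other arrays it was 19743 to 23381. Among those other arrays its lowest and highest values were on MSC-only 1 and 5, where Col1a2 was 19240 and 20564. Whether Maf rises with Col1a2 within each of these sets of arrays was not tested. With the replicate number as a block 0 probe sets were called on the whole array, and the slope at 1456060_at was 0.68 (adjusted p = 0.505).

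The correlation, without the group term, uses the same arrays and probe sets as the slope and so is not a separate result. Maf at 1456060_at followed Col1a2 with Pearson r = 0.85 (permutation p = 0.00063) and Spearman rho = 0.74 (permutation p = 0.00787), where 18 relations were computed and limma on Col1a2 alone, adjusted over all probe sets, gave p = 0.0410. Within the MSC-only group r was 0.93 (exact permutation p = 0.00556) and within the co-culture group 0.91 (exact permutation p = 0.0111). Without the 2 arrays farthest from the median Col1a2 level, co-culture 1 and MSC-only 4, it was 0.76 (permutation p = 0.0136). Over the 5 Maf probe sets r lay between 0.77 and 0.89, with limma's adjusted p from 0.0196 to 0.0814.

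Spi1 and Adgre1 ran the other way but did not pass the adjusted threshold. The slope of Spi1 was -0.50 (SE 0.14, adjusted p = 0.0891) and that of Adgre1 -0.67 (SE 0.19, adjusted p = 0.0904). For Spi1, r with Col1a2 was -0.83 (permutation p = 0.00121; rho = -0.76, permutation p = 0.00568), with -0.80 in the MSC-only group (exact permutation p = 0.0625) and -0.85 in the co-culture group (exact permutation p = 0.0403), and -0.79 without the 2 farthest arrays (permutation p = 0.00895). For Adgre1, r was -0.69 (permutation p = 0.0146; rho = -0.63, permutation p = 0.0322), with -0.70 in the MSC-only group (exact permutation p = 0.121) and -0.86 in the co-culture group (exact permutation p = 0.0111). Without the 2 farthest arrays it was -0.62 and no longer under 0.05 (permutation p = 0.0620). The adjusted p of these r values over all probe sets was 0.0708 and 0.141.

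These calls depended on which probe sets were tested together. When probe sets with a mean signal under 100 were left out, 7.67% of 20973 had a positive slope called and 7.21% a negative one, and 7 of the 17 remaining probe sets of the 9 genes were called. They were the same 5 of Maf together with Adgre1 (adjusted p = 0.0265) and Spi1 (adjusted p = 0.0222). Read against that background, the share of called probe sets was higher all over the array as well.

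**Figure D3:**
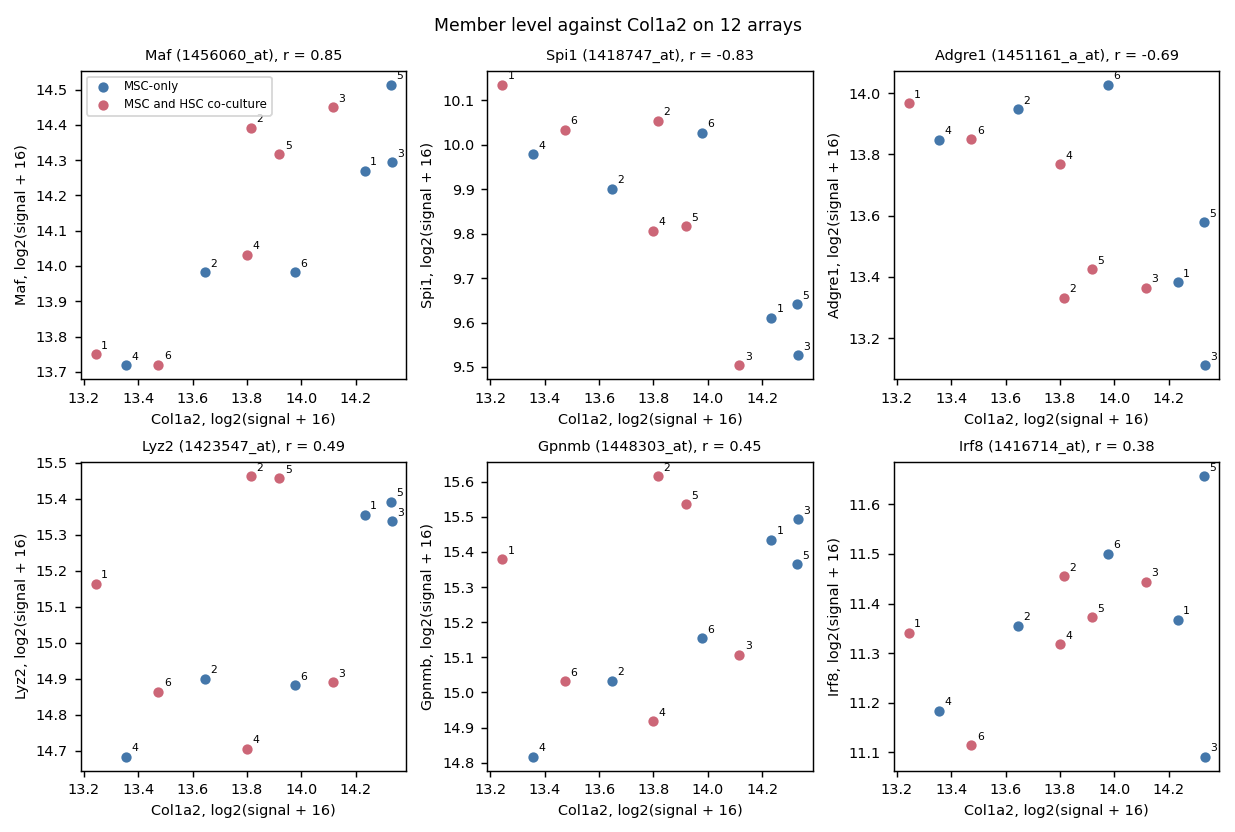
Log2(signal + 16) of 6 genes (y axes) against that of Col1a2 (x axes) on the 12 arrays, numbered by replicate, MSC-only in blue and co-culture in red. Maf rises with Col1a2 (r = 0.85) and Spi1 runs against it (r = -0.83), while Lyz2 and Gpnmb have r = 0.94 and 0.98 among the MSC-only arrays and 0.04 and 0.00 among the co-cultures.

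The lysozymes, Gpnmb and Mpeg1 had positive slopes that were not called. The slope was 0.45 for Lyz2 (SE 0.24, adjusted p = 0.365), 0.43 for Lyz1 at 1436996_x_at (SE 0.25), 0.39 for Gpnmb at 1448303_at (SE 0.21) and 0.25 for Mpeg1 (SE 0.15). Over all 12 arrays r with Col1a2 lay between 0.44 and 0.49 for these genes, with permutation p from 0.106 to 0.155, and rho between 0.41 and 0.55, with permutation p from 0.0718 to 0.187. Without the 2 farthest arrays r was 0.35 to 0.52. Within the MSC-only group r was 0.95 for Lyz1, 0.94 for Lyz2 and 0.98 for Gpnmb (exact permutation p = 0.0167, 0.0139 and 0.00417), against -0.03, 0.04 and 0.00 within the co-culture group. The difference between the groups in slope was tested as an interaction and was not called, with unadjusted p = 0.150, 0.182 and 0.161 and adjusted p = 1.0 by limma. Over the array 0% of probe sets had a called interaction, and 4.64% had a limma unadjusted p under 0.05 with 12 arrays, as did Maf 1447849_s_at alone among the 18 (0.0485).

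The slopes of Irf8 and Aif1 were not called. The slope was 0.18 for Irf8 at 1416714_at (SE 0.16), 0.63 at 1448452_at (SE 0.24, unadjusted p = 0.0215 and adjusted p = 0.190 by limma) and -0.10 for Aif1 (SE 0.24). Their r with Col1a2 was 0.38 for Irf8 at 1416714_at (permutation p = 0.229; rho = 0.37, permutation p = 0.237), 0.57 for Irf8 at 1448452_at (permutation p = 0.0544; rho = 0.43, permutation p = 0.169) and -0.16 for Aif1 (permutation p = 0.634; rho = -0.03, permutation p = 0.939). In all, 14 of the 18 slopes were positive and 4 negative, with a median of 0.42 against 0.05 over all probe sets. At a limma unadjusted p under 0.05 there were 8 of 18, 5 of them of Maf, against 17.5% of all probe sets. Of the 18, 17 had a mean signal of at least 100. In the fit of the 20973 probe sets that bright, 3447 had a positive and 2972 a negative slope at that threshold, a larger share. The median is weighted by Maf and Lyz1, which contribute 9 of the 18 probe sets.

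The scaling of the arrays moved with part of this. The 99.9th percentile of the signal ran from 27116 to 39947 over the arrays, since the arrays share a trimmed mean but not their upper end. It followed Lyz2 (r = 0.98), Gpnmb (0.96), Lyz1 (0.95) and Mpeg1 (0.84), whose probe sets are near or above it and help to set it, more closely than Maf (0.71), Adgre1 (-0.68), Irf8 (0.39) or Spi1 (-0.27). With Col1a2 its r was 0.52 over 12 arrays (permutation p = 0.0838; rho = 0.53, permutation p = 0.0796), 0.94 in the MSC-only group (exact permutation p = 0.00556) and 0.15 in the co-culture group (exact permutation p = 0.753).

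After quantile normalization, which gives every array the same distribution, the slope of Lyz2 went from 0.45 to 0.05, that of Gpnmb from 0.39 to 0.04 and that of Lyz1 from 0.43 to 0.04. The slopes of the 5 Maf probe sets lay between 0.67 and 1.13, but their adjusted p-values lay between 0.0680 and 0.103, so 0 were called, and 169 probe sets were called over the array. The slope of Spi1 was -0.56 and that of Adgre1 -0.71. With the log2 of the 99.9th percentile as a further term, a fit chosen after seeing the data, the Maf slopes were 0.62 to 0.98 with unadjusted p from 0.00226 to 0.00861, and 0 probe sets were called anywhere on the array.

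The size of the Maf slope held in fewer arrays while its call did not. Without the arrays numbered 3 and 4 it was 0.90 at 1456060_at (adjusted p = 0.193 by limma, 8 arrays), and 1 probe set was called over the whole array. On those 8 arrays r with Col1a2 was 0.83 for Maf (permutation p = 0.0135), -0.83 for Spi1 (permutation p = 0.0111) and -0.56 for Adgre1 (permutation p = 0.156). Leaving out single arrays gave slopes of 0.71 to 0.82 there, and 0 to 5 of the 18 probe sets called. None were called without co-culture 1, co-culture 3 or MSC-only 4, 1 without MSC-only 5, 2 without MSC-only 1 and 3 without co-culture 5 or co-culture 6. With Col1a1, the other chain of type I collagen, in place of Col1a2 the slope was 0.41 (adjusted p = 0.809), with the second Col1a2 probe set 0.60 (adjusted p = 0.211) and with Col3a1 0.26 (adjusted p = 0.0283).

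**Figure D4:**
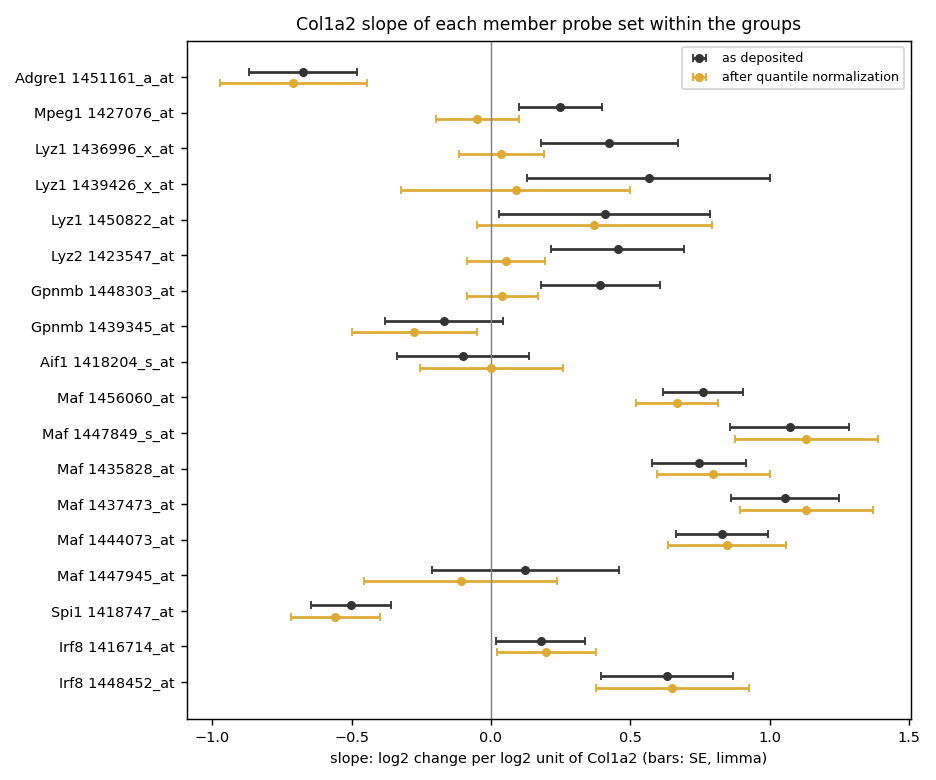
Slope of the 18 probe sets on Col1a2 (log2 change per log2 unit, limma with the group as a term, 12 arrays; bars are SE) for the signals as deposited (black) and after quantile normalization (yellow). The 5 bright Maf probe sets lie between 0.67 and 1.13 in both, whereas Lyz2 moves from 0.45 to 0.05.

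Among themselves the 9 genes did not vary as a single group. These correlations over 12 arrays are descriptions, since all genes share the arrays and their scaling. Lyz1, Lyz2 and Gpnmb went together (r from 0.96 to 0.98), with Mpeg1 beside them (0.77 to 0.79). The Lyz1 probe set used here may share signal with Lyz2. Adgre1 and Spi1 went together (r = 0.71), and Adgre1 also with Aif1 (0.64), another pair of macrophage markers. Maf ran against Adgre1 (r = -0.79) and Spi1 (-0.71). It went with Mpeg1 (0.68), Lyz2 (0.65), Lyz1 (0.61), Gpnmb (0.61) and Irf8 (0.56). Adgre1 ran against Lyz2 (-0.65), Gpnmb (-0.64), Lyz1 (-0.57) and Mpeg1 (-0.47). Irf8 at its brightest probe set went with Aif1 (0.61) and Mpeg1 (0.59), and not with Adgre1 (0.03) or Spi1 (-0.09).

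**Figure D5:**
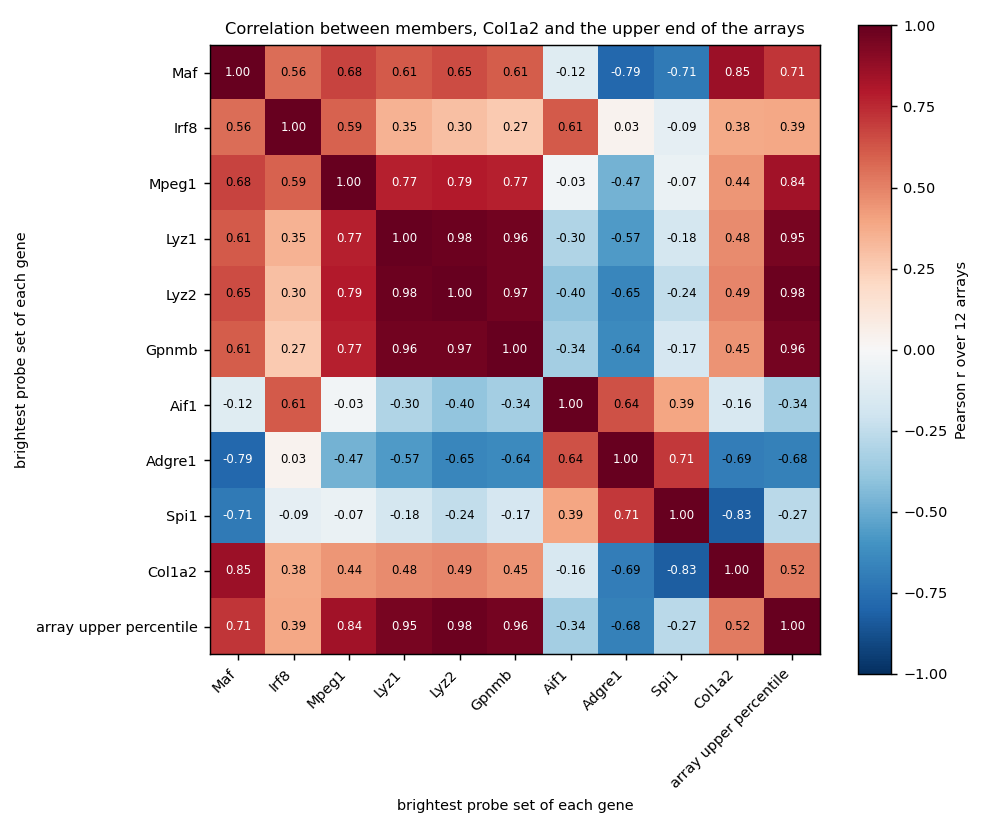
Pearson r over 12 arrays between the brightest probe sets of the 9 genes, Col1a2 and the 99.9th percentile of each array, from -1 (blue) to 1 (red). Lyz1, Lyz2 and Gpnmb form a block with the array percentile (0.95 to 0.98), and Maf lies opposite Adgre1 (-0.79) and Spi1 (-0.71).

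The genes whose brightest probe sets followed each of the 9 most closely, among 10180 genes with a mean signal of at least 100, differed between them. For Maf they were Derl1 (r = 0.99), Cp, which encodes ceruloplasmin (0.99), and Calhm6 (0.98). For Spi1 they were Diaph1 (0.95), Zfp36, which encodes an RNA-binding protein that shortens the life of cytokine messages (0.93), and Cd52, a surface glycoprotein of leukocytes (0.93). For Adgre1 they were Fuca1, a lysosomal fucosidase (0.98), Mkln1 (0.97) and Reps2 (0.97).

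The lysozymes and Gpnmb were followed by genes of high signal of many kinds. Nearest to Lyz1 were Lgals3, which encodes galectin-3 (0.98), Lyz2 (0.98) and cathepsin Z, Ctsz (0.98), and nearest to Lyz2 the ribosomal protein gene Rpl41 (0.99), Itm2b (0.99) and cathepsin D, Ctsd (0.99). Nearest to Gpnmb were the actin gene Actb (0.99), Ndufa7 (0.97) and Lgals3 (0.97). Mpeg1 was nearest to Rab8b, Qk and Plek (0.93, 0.93 and 0.92), Aif1 to Ctla2b, Bmf and Tmem140 (0.94, 0.91 and 0.90), and Irf8 to Ppp1r12a, Ermard and Slc43a2 (0.93, 0.91 and 0.90).

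Other macrophage genes were read from fixed lists with 1 probe set per gene. Of 40 further surface and effector genes 0 differed between the groups by limma, and their median log2 difference was -0.00 against 0.01 over the brightest probe sets of all genes, of which 0.011% were called. On Col1a2, 6 of the 40 had a called negative slope and 0 a positive one, against 1.89% and 1.95% of all genes, and the median slope was 0.13 against 0.04. The share of all genes includes many dim ones, whereas only 4 of the 40 had a mean signal under 50. With dim probe sets left out before adjustment, 7.21% were called negative and 7.67% positive over the array. The counts of this list and the following ones are therefore not set against genes of like signal. The steepest of the 40 were Itgax, which encodes the integrin CD11c (slope -3.88, SE 0.47, adjusted p = 0.00833), Itgam, which encodes CD11b (-2.36, SE 0.36), Folr2, a folate receptor of resident macrophages (-2.08, SE 0.34), and Cd36, a scavenger receptor (-1.74, SE 0.24). Itgax ran from 68.0 to 1341 over the arrays and Cd36 from 7633 to 35606, far wider than Adgre1 or Lyz2. Over the same arrays Maf ran opposite to all 4, with r from -0.97 to -0.92. These 4 were picked by their slopes, and the list as a whole had 23 positive and 17 negative slopes. Maf went with other genes of the list, for example Mrc1 (r = 0.91) and Csf1r (0.82).

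Of 31 further transcription factors measured, 0 differed between the groups, against 0.011% of all genes, and 5 had a called slope, 2 positive and 3 negative, against 1.95% and 1.89%. Cebpd, a C/EBP factor of the inflammatory response (0.96, SE 0.17), and Klf4, a Krüppel-like factor of monocytes (0.84, SE 0.17), were positive. Egr2 (-1.93, SE 0.36), Id3 (-1.84, SE 0.40) and Klf6 (-0.66, SE 0.13) were negative. The list leaned to neither side, with 13 positive and 18 negative slopes and a median of -0.12.

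Of 19 further MSC and fibroblast genes 4 had a called slope, all positive, against 1.95% of all genes with a called positive slope, namely Col3a1 (2.52, SE 0.41), Dcn, which encodes decorin (2.86, SE 0.50), Fn1, which encodes fibronectin (0.95, SE 0.17), and the chemokine gene Cxcl12 (2.63, SE 0.57). The summed signal of the list, Col1a2 included, ran from 90222 to 133330 in the MSC-only group and from 84790.2 to 116547 in the co-culture group. Maf went with all 4 called genes (r from 0.83 to 0.94), which were picked by their slope on Col1a2. With other genes of the list its r varied, for example 0.40 for Col1a1, 0.34 for Pdgfra and -0.81 for Vim. Of the 19 slopes 15 were positive and 4 negative. The part of stromal RNA in the Maf slope was not tested.

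Of 80 markers of osteoclasts and other blood and vessel cells 8 had a called slope, 3 positive (3.75%) and 5 negative (6.25%), against 1.95% and 1.89% of all genes. Slopes were called for 1 of 10 osteoclast genes (Itgb3, -1.25), 2 of 10 neutrophil genes (Prtn3, 2.69, and S100a8, -1.79), 1 of 9 dendritic cell genes (Cd86, 1.88), 1 of 6 megakaryocyte genes (Vwf, -1.15) and 3 of 10 HSC and progenitor genes (Hoxa9, 0.83, Cd34, -1.27, and Procr, -2.28). For mast, B, T and NK, erythroid and endothelial cells the count was 0 of 8, 7, 7, 6 and 8. Of the called genes, Prtn3 (4.9 to 103) and Cd34 (4.4 to 79.9) had low signals over all 12 arrays, so their slopes rest on dim values. No gene of these lists was called between the groups. Of the 80 genes 49 had a mean signal under 50, among them Cd3e at 7.4 to 46.7, Cd79a at 1.2 to 42.9, Elane at 11.8 to 62.8, Kit at 2.3 to 67.2 and Pecam1, which encodes CD31, at 3.8 to 36.6 over all 12 arrays. Other members of the same lists were higher, with S100a8 at 155 to 779 and Csf3r, the receptor of granulocyte colony-stimulating factor, at 519 to 927 on the neutrophil list, Procr at 194.5 to 1166 and Hoxa9 at 322 to 663 on the HSC list, and Ebf1, a B cell factor, at 69.9 to 264. Their part in the slopes was not tested. Summed signals overlapped between the groups, at 1068 to 1478 against 1270 to 1597 for neutrophil genes, 3664 to 8631 against 3966 to 8910.3 for dendritic cell genes and 1336 to 1976 against 1388 to 1968 for HSC and progenitor genes. Pf4, a platelet chemokine on the megakaryocyte list, was high at 10693 to 22224, with a slope of 0.10 that was not called.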

How the data were processed

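RNA of the 12 cultures was hybridized to Affymetrix mouse arrays and the authors read them with Affymetrix GeneChip Operating Software. The deposited values are 1 intensity per probe set and array, linear and not log-transformed. Trimmed means were alike on all arrays (497 with 2% trimmed) while upper percentiles differed. The sources used here do not give the target of this scaling or how probes were summarised. Analyses used log2(signal + 16). A single symbol was annotated to 34945 of 45037 probe sets, several symbols to 932 and none here to 9160. A gene is represented by its brightest probe set unless another is named.

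Groups and Col1a2 slopes were fitted with limma 3.58.1 in R 4.3.3 (lmFit, eBayes; no block, no filter) and adjusted by Benjamini-Hochberg over all probe sets, with a threshold of 0.05. Correlations and permutation tests used 100000 resamples for 12 arrays and all 720 orders for 6 (Python 3.11.15, scipy 1.17.1). Permutation p-values were not adjusted over all probe sets, and limma's fit on Col1a2 alone, without the group, was used for that. The fits were run on simulated data with known changes and independent noise for each value. Such data hold no variation shared by the probe sets of an array, so this run cannot show how the fits handle it.

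Genes named are the 9 genes, Col1a2, Col1a1, Col3a1, Xist and Eif2s3y, the 3 genes most like each of the 9, up to 4 genes per list with the smallest slope p, and in marker lists the 2 brightest where given. Id3, Cd68, Csf1r, Mrc1, Ptprc, Pdgfra, Pf4, Csf3r, Ebf1, and the markers named for a low signal with their threshold of 50 were chosen after their values were seen. The 9 genes, the 13 lists and the tests were chosen with earlier results of these data known. Alternatives covered scaling, the constant in the logarithm, leaving out dim probe sets (mean signal under 100), the replicate block, trend and robust options, the methods' unpaired test, other stromal references, the probe sets of a gene, and leaving out arrays. Promoter windows came from a RefSeq table of GRCm38.p6, and matched 6 of the 9 genes, all but Maf, Spi1 and Adgre1.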

Additional observations from a re-analysis of the deposited data

How the results depend on the processing

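For the difference between the groups, 0 of the 18 probe sets (17 where dim probe sets were left out) were called under every alternative run, and over the whole array 2 probe sets became 1 with quantile normalization, median centring, 75th percentile centring, log2(signal + 1) or the methods' unpaired test, 0 with log2(signal + 64), without dim probe sets, with the replicate block or with limma's trend and robust options, and 8 without the arrays numbered 3 and 4. Leaving out single arrays gave 0 to 4. For the Col1a2 slope, the 5 calls among the 18 became 0 with quantile normalization, median centring, the replicate block, the second Col1a2 probe set, Col1a1, the 99.9th percentile as a term, or without the arrays numbered 3 and 4, and 0 to 5 without single arrays. Over the whole array 1236 calls became 169 with quantile normalization, 333 with median centring, 727 with log2(signal + 1), 2342 with log2(signal + 64), 3120 without dim probe sets, 2891 with trend and robust, 1 without the arrays numbered 3 and 4, 1 with the second Col1a2 probe set, 0 with Col1a1 or with the 99.9th percentile term, and 189 to 1288 without single arrays, with 189, 218, 454 and 597 without co-cultures 1, 3, 6 and 5, and 329, 494, 497, 794 and 797 without MSC-only arrays 4, 5, 1, 2 and 3. The cause of these shifts was not tested. The 11 calls in the macrophage lists became 3 to 12 without single arrays, with 3 without co-culture 1 or MSC-only 4, 4 without co-culture 3, 5 without co-culture 6, and 7 without co-culture 5, MSC-only 1 or MSC-only 5.

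Samples of the same replicate number had correlations of their deviations from the group means of -0.16 and -0.13 for numbers 1 and 2 and of 0.10 to 0.15 for numbers 3 to 6. The sample titles carry the same MSC number in both groups, so the arrays may be pairs, but no label says that it names a shared source. Eif2s3y was low on arrays 3 and 4 of both groups and at least 1022 on the others of both groups. The main fits did not take the numbers as pairs, since the methods describe an unpaired comparison and state no pairing of arrays. Not every number was above 0.1 either, but this does not exclude a shared source. If they are pairs, the calls of the main fits ignore that pairing. With the replicate block, 0 probe sets were called for the difference and 0 for the slope on the whole array, and 0 genes of the macrophage lists. The Maf slope at 1456060_at was then 0.68, and the adjusted p of the 5 bright Maf probe sets 0.472 to 0.527.

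Values near 0 changed sign. The log2 difference of Lyz2 became 0.0088 with 75th percentile centring. Without the arrays numbered 3 and 4 it became 0.10 for Lyz2, 0.053 for Lyz1 and -0.19 for Aif1. Without single arrays it ran from -0.14 to 0.044 for Adgre1, -0.13 to 0.056 for Lyz1, -0.083 to 0.076 for Lyz2, -0.031 to 0.12 for Gpnmb, -0.064 to 0.15 for Aif1, -0.098 to 0.061 for Maf and -0.072 to 0.041 for Irf8. Slopes that turned were those of Mpeg1 (-0.048) and Aif1 (0.0016) with quantile normalization, Aif1 with the replicate block (0.24), Gpnmb 1439345_at without the arrays numbered 3 and 4 (0.28), Lyz1 1450822_at with Col1a1 (-0.25), and Maf 1447945_at with quantile normalization (-0.11), median centring (-0.072) and Col1a1 (-0.052). With the 99.9th percentile as a term they were Lyz1 1436996_x_at (-0.080), Lyz1 1439426_x_at (-0.32), Lyz2 (-0.056), Gpnmb (-0.038), Aif1 (0.071) and Maf 1447945_at (-0.27). Without single arrays the slope of Aif1 ran from -0.28 to 0.081 and that of Maf 1447945_at from -0.049 to 0.25. The r with Col1a2 turned for Mpeg1 with quantile normalization (-0.21), within the co-culture group for Aif1 (0.23) and Lyz1 (-0.032), and for Aif1 without the arrays numbered 3 and 4 (0.065), and ran from -0.28 to 0.18 for Aif1 without single arrays. None of these values was past the threshold. The number of arrays limits the precision, and their signal has no count depth.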
